A study of Oryza sativa with 4 samples.

Results

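Among the predicted miRNAs of rice seedlings, 98 distinct mature sequences had a sequenced miRNA*, out of 730 distinct predicted sequences and 783 distinct sequences in all. A sequence counted as predicted where the lists gave it no miRBase family, and it was chosen where at least 1 miRNA* read was recorded at any of its hairpins in any library. One further predicted sequence that met this rule, of a hairpin on chromosome 2, was left out. The other 631 predicted sequences had no miRNA* read, and the lists held 53 conserved sequences of known families. The members were thus chosen by their miRNA* reads, and the presence of these reads is a description and not a result.

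In plants, a miRNA is cut from the stem of a folded transcript by DCL1, a Dicer-like enzyme, as a short duplex with overhanging 3′ ends. The ends are methylated by HEN1, one strand (the mature miRNA) is loaded into an Argonaute protein, mostly AGO1 where the first base is U, and the other strand, the miRNA*, is largely degraded. Reads of both strands at the positions of a cut duplex are one of the marks by which a plant miRNA is told from other small RNAs. Small RNAs of 24 nt, which guide DNA methylation at repeats, are made by another Dicer-like enzyme, DCL3, and rice hairpins made of inverted repeats can give small RNAs of several lengths.

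The libraries came from seedlings of Oryza sativa cv. Pokkali, a salt-tolerant indica cultivar raised hydroponically. On day 9 after germination NaCl at 1.5% was given through the root, and root and shoot (the aerial part) were taken after 9 h, as were those of seedlings without added NaCl. Root without added NaCl (CR) and with it (TR), and shoot without (CS) and with it (TS), gave 1 library each, so no difference below has a replicate check, an SD or a p-value. The labelled tissues could not be checked against marker genes because the lists hold no mRNA. The hairpins were not compared with gene, repeat or tRNA annotation here, so whether a member is a piece of another RNA was not tested. The reads used for prediction numbered 6887961 in CR, 12126876 in TR, and 13116913 in CS and 9765004 in TS, so that 1 read was worth 0.145, 0.0825, 0.0762 and 0.102 reads per 1000000 reads used (RPM), respectively. A sequence that is not listed in a library may still have been sequenced there, and it was given no count and no fold. All 95% intervals are exact unless stated otherwise, and they cover counting error only. Reads amplified by PCR are not independent molecules, so the intervals may be too narrow even for that.

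The members were given names by chromosome and order along it, and a pair of them have names from the study, osa-miR12474 and osa-miR12475. The mature sequences that carry the read counts described below are shown with the seed, bases 2 to 8 from the 5′ end, in capitals, with T in place of U as in the deposited lists and with the position of the mature sequence in the IRGSP-1.0 genome.
osa-miR12474 (chr2:28716971-28716992, + strand): gCCCCGCGtcgcacggattcgt
osa-miR12475 (chr6:3204262-3204282, - strand): aCCGAGGCgcgtcaattgctg
pred-12e (chr12:27018566-27018585, + strand): tCCATTGTcgtctagtccgg
pred-2e (chr2:14279612-14279631, - strand): aTAGTTTTttctaccacact
pred-10b (chr10:4833702-4833723, + strand): tAGGTTTGtttattttgggacg
pred-10c (chr10:4833930-4833950, + strand): tATGACGCtgttgacttttag
pred-1e (chr1:6677579-6677600, - strand): cTTGGACTgaagggtgctccct
pred-1j (chr1:33589428-33589448, - strand): aACTGACTggtcgtaggttcg
pred-8a (chr8:1220400-1220421, - strand): cTCGCCGGggctgcgtgccgcc
pred-3d (chr3:10542251-10542272, + strand): aTGGTCGTtcatgtgtccgtct
pred-7c (chr7:15636749-15636770, - strand): tGAGCCGAgccaatatcacttc
The first 10 of these had the most reads of all members in any library, and only 3 of the 10 (pred-10c, pred-1e and pred-3d) matched the genome at a single place. No seed was shared by these 11. Over all 98 members, 4 seeds occurred in a pair of members each: pred-6d with pred-6e and pred-10f with pred-10g, which are length variants at 1 locus, and pred-1d with pred-3e and pred-5a with pred-10a, which lie on different chromosomes.

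Most members were rare and were listed in a single library. CR listed 18 of them, TR 29, CS 47 and TS 44, which was 19.8%, 14.6%, 14.9% and 16.2% of the distinct predicted sequences of each list. Of the 98, 70 were listed in 1 library, 20 in 2, 4 in 3 and 4 in all 4 libraries. By tissue, 24 (24.5%) were listed in root only, 60 (61.2%) in shoot only and 14 (14.3%) in both, beside 28.8%, 63.9% and 7.29% of the predicted sequences without miRNA*. The highest count of a member in any library had a median of 3.5 reads, 38 members never exceeded 2 reads, and 21 reached 10 reads. Of the 631 predicted sequences without miRNA*, 78 (12.4%) were listed in 2 or more libraries, as against 28 (28.6%) of the members, and 54 (8.56%) reached 10 reads, as against 21.4% of the members. An abundant sequence has more chance of a miRNA* read, so these contrasts are tied to the rule that chose the members.

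The summed mature reads of the members were 369 in CR, 698 in TR, and 29660 in CS and 1041 in TS, or 53.6, 57.6, 2261 and 107 RPM. The CS total was almost wholly osa-miR12474, which had 29014 reads there (2212 RPM) and was not listed in the other libraries. Without the most abundant member of each library, the sums were 23.7 RPM in CR, 24.7 in TR, and 49.2 in CS and 79.1 in TS. The members held 37% of the reads of predicted sequences in CR, 36.2% in TR, and 91.7% in CS and 36.9% in TS. Distinct miRNA* sequences of the members summed to 30 reads in CR, 74 in TR, and 151 in CS and 70 in TS, or 4.36, 6.1, 11.5 and 7.17 RPM.

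**Figure D1:**
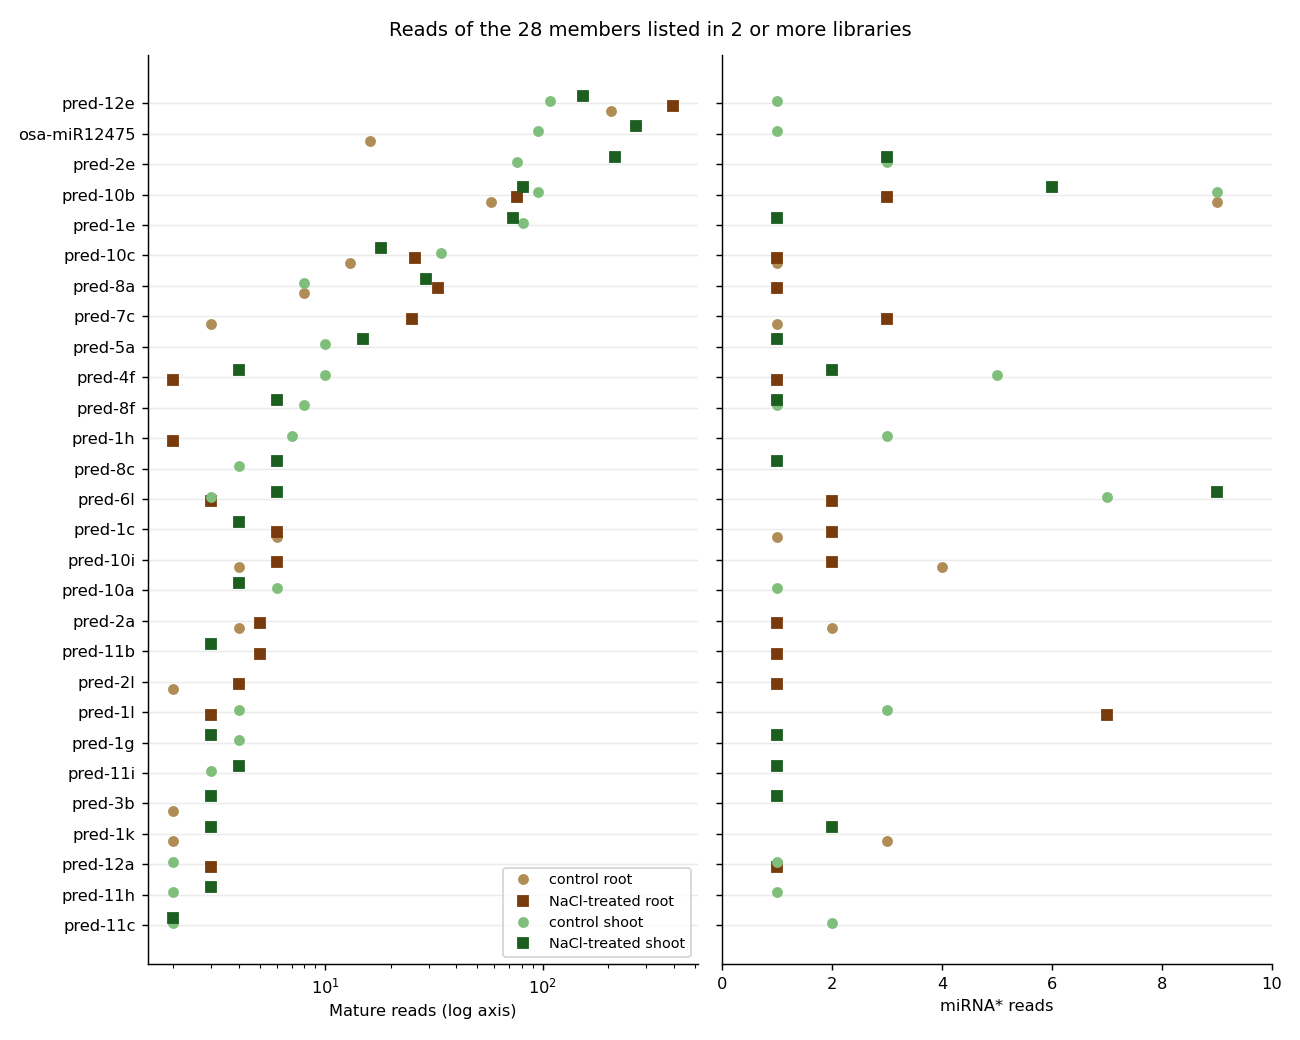
Mature reads (left, log axis) and miRNA* reads (right, linear axis) of the 28 members listed in 2 or more libraries, 1 row per member, with 1 point for each library that lists it. pred-10b had miRNA* reads in each of the 4 libraries, whereas the more abundant pred-12e had 1 in CS only.

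The 4 members listed in every library differed in how often the miRNA* was seen. pred-10b had 58 reads in CR, 76 in TR, and 95 in CS and 81 in TS, with 9, 3, 9 and 6 miRNA* reads beside them, and it was the only member with miRNA* reads in all 4 libraries. Its level was nearly even, between 6.27 RPM in TR and 8.42 RPM in CR. pred-10c, whose start lies 228 nt from that of pred-10b on the same strand, had 13 reads in CR, 26 in TR, and 34 in CS and 18 in TS, with 1 miRNA* read each in CR and TR. pred-8a had 8 reads in CR, 33 in TR, and 8 in CS and 29 in TS, and 1 miRNA* read, in TR. pred-12e had the most reads of these, 206 in CR, 398 in TR, and 108 in CS and 153 in TS, with 1 miRNA* read, in CS. pred-8a and pred-12e matched the genome at 7 and 10 places, so that their reads cannot be assigned to a single hairpin.

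The hairpins with the most miRNA* reads were mostly not those with the most mature reads. osa-miR12474 had 55 miRNA* reads, which was 0.189% of its mature and miRNA* reads together (0.143% to 0.246%). pred-6i had 15 miRNA* reads beside 2 mature reads in TR, and pred-4a had 11 beside 2 in CS. pred-2h had 12 miRNA* and 14 mature reads in TR, and pred-8e had 10 and 15, also in TR. pred-6l had 2 miRNA* reads in TR, 7 in CS and 9 in TS, with 3, 3 and 6 mature reads, so that its miRNA* had more reads than the mature sequence in both shoot libraries. pred-1l had 7 miRNA* and 3 mature reads in TR, and pred-6k had 6 and 2 in TS. The next members, with 5 miRNA* reads each in 1 library, were pred-4f, pred-6h, pred-7f, pred-8b and pred-8d. All 5 miRNA* reads of pred-7f in TR have sequences that were also recorded for pred-1l in TR with the same counts. The same reads were thus counted at both hairpins, which lie on different chromosomes.

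Over the 138 listings of a member in a library, 115 had miRNA* reads, and in 63 of them there was exactly 1. A further 17 had 2 reads, 30 had 3 to 9 and 5 had 10 or more. The miRNA* outnumbered the mature sequence in 15 listings, of 14 members, and equalled it in 11. A read recorded at hairpins of several members was counted for each of them. In those 15 listings the mature count was 2 to 6 reads, and only for pred-6i and pred-4a did the interval of the miRNA* share lie above 50% (88.2%, 63.6% to 98.5%, and 84.6%, 54.6% to 98.1%). In each of the others the order of the strands was not detectable at this depth. At the edge of the rule, 56 members had at most 1 miRNA* read in any library, with highest mature counts of 2 to 398 reads (median 4.0), and the 631 sequences just outside it had highest counts of up to 590 reads (median 2.0).

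**Figure D2:**
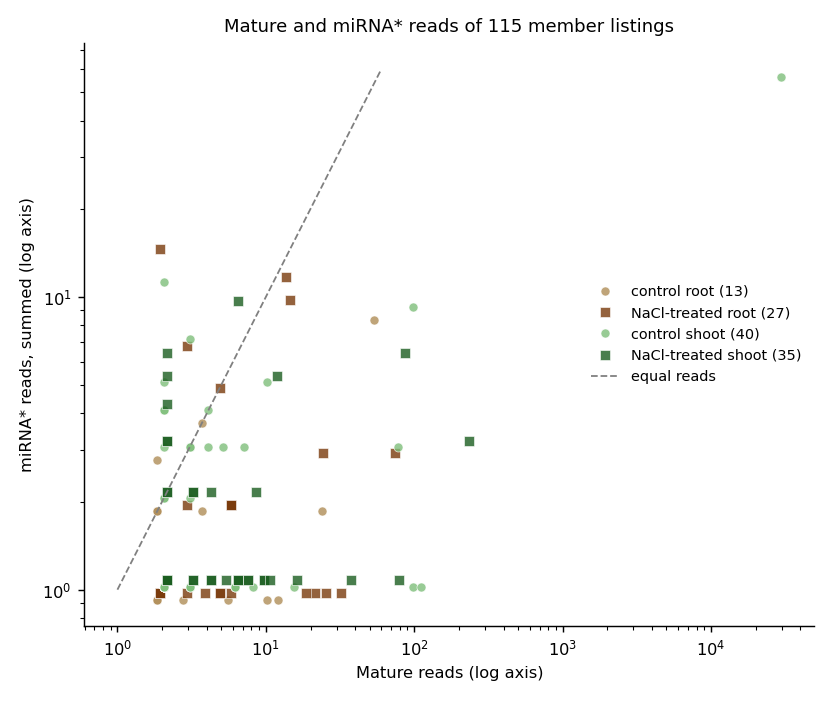
Summed miRNA* reads against mature reads (both axes log) for the 115 listings of a member with miRNA* reads, coloured by library, with the number of listings in the key; points are shifted slightly by library so that equal counts can be seen. Points above the dashed line, 15 listings, had more miRNA* than mature reads, and the point at the far right is osa-miR12474 in CS.

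The miRNA* was seen again in a further library for few members. Of the 28 members listed in 2 or more libraries, 13 had miRNA* reads in at least 2 of them and 11 had them in every library that listed them, and 45 of their 68 listings (66.2%) had miRNA* reads. Beside pred-10b, these were pred-4f and pred-6l with 3 libraries each, and pred-1c, pred-1k, pred-1l, pred-2a, pred-2e, pred-7c, pred-8f, pred-10c, pred-10i and pred-12a with 2. pred-4f had 2, 10 and 4 mature reads in TR, CS and TS, with 1, 5 and 2 miRNA* reads. pred-2e had 76 reads in CS and 216 in TS, with 3 miRNA* reads in each. Apart from pred-2e, pred-7c, pred-10b and pred-10c, no member of these 13 exceeded 10 mature reads in any library.

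A duplex cut by a Dicer-like enzyme has 3′ overhangs of 2 nt at both ends, and the deposited fold of each hairpin allowed these to be measured. For the most frequent miRNA* of each of the 115 listings, 23 duplexes (20%, 13.1% to 28.5%) had 2 nt at both ends, and 53 (46.1%, 36.8% to 55.6%) had 1 to 3 nt at both. Among conserved sequences the same measure gave 31 of 68 (45.6%, 33.5% to 58.1%) and 56 (82.4%, 71.2% to 90.5%), so that neither pair of intervals overlapped, although listings that share a hairpin are not independent and the classes differ in miRNA* reads. Where the most frequent miRNA* of a member had at least 2 reads, 13 of 36 duplexes (36.1%, 20.8% to 53.8%) had 2 nt at both ends, and where it had 1 read, 10 of 79 did (12.7%, 6.24% to 22%). The conserved sequences gave 52.6% (35.8% to 69%) with at least 2 reads and 36.7% (19.9% to 56.1%) with 1 read. With the listings split in this way, each interval for 2 nt at both ends overlapped that of the members. For 1 to 3 nt at both ends and at least 2 reads, members gave 61.1% (43.5% to 76.9%) and conserved sequences 86.8% (71.9% to 95.6%), which overlap. With 1 read they gave 39.2% (28.4% to 50.9%) and 76.7% (57.7% to 90.1%), which do not overlap. For osa-miR12474, the most frequent miRNA* (13 reads in CS) gave overhangs of 1 nt for the mature sequence and -15 nt, a recessed end, for the miRNA*. Over its 12 miRNA* sequences the miRNA* overhang ran from -18 to -12 nt, so none had 2 nt at both ends. The mature sequence lay on the 5p arm in 60 members and on the 3p arm in 38.

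The duplexes with 2 nt at both ends came from 16 members. Among them, pred-10b had this geometry in all 4 libraries, pred-6l in TR, CS and TS, and pred-2a and pred-7c in both root libraries. The mature sequence and the most frequent miRNA* of these are shown because they had 2 nt at both ends in more than 1 library, with the seed of the mature sequence in capitals. Repeated pairs were not limited to this geometry: pred-8f (CS and TS) and pred-12a (TR and CS) also kept the same pair, with recessed ends.
pred-10b: tAGGTTTGtttattttgggacg
pred-10b miRNA*: tcccaaaataaacaaagctagt
pred-6l (chr6:26492357-26492377, - strand): aATATGCAtgtgggaaatact
pred-6l miRNA*: tatttcccacattcatattga
pred-2a (chr2:4195674-4195694, - strand): tCGTTTATttggactagagtg
pred-2a miRNA*: cactagttcaactaaatgaac
pred-7c: tGAGCCGAgccaatatcacttc
pred-7c miRNA*: catggtattgacttggctcatc
The miRNA* of pred-2a is itself listed as a mature sequence in TS, with 4 reads, where pred-2a is not listed. pred-2a had 4 reads in CR and 5 in TR, with 2 and 1 miRNA* reads.

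**Figure D3:**
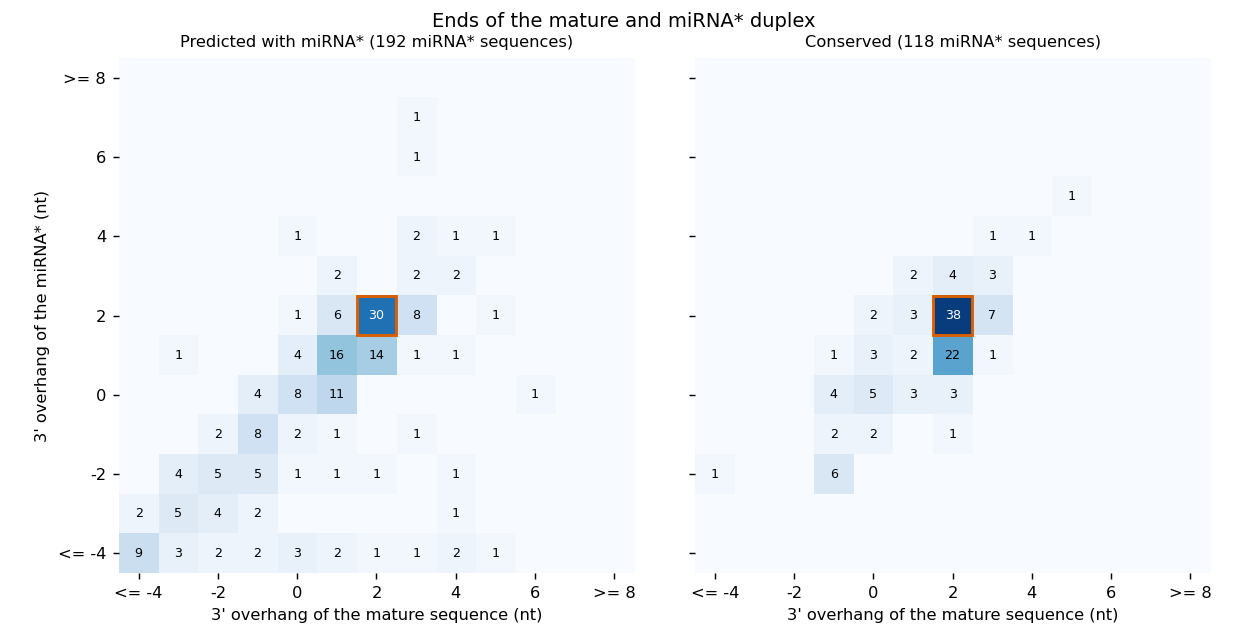
Number of miRNA* sequences by the 3′ overhang of the mature sequence (horizontal axis, nt) and that of the miRNA* (vertical axis, nt) on the deposited fold, for the members and for conserved sequences; negative values are recessed ends and the outermost cells also hold values beyond them. The framed cell, 2 nt at both ends, held 30 of 192 miRNA* sequences of members and 38 of 118 of conserved sequences.

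The 5′ end of the miRNA* was also less uniform in members than in conserved sequences. In the 52 listings of members with at least 2 miRNA* reads, 18 had a single 5′ end, 23 had 2 and 11 had 3 or more, and 178 of 274 reads (65%) began at the main end. Reads recorded for several members, such as pred-1l and pred-7f in TR, are counted for each in the 274. In the 44 such listings of conserved sequences, 25 had a single end and 3 had 3 or more, and 2501 of 2540 reads (98.5%) began at the main end. Most of these 2540 reads came from a single listing, miR168 in TS, with 1928 reads, of which 1918 began at its main end. The median share per listing, which does not weight by reads, was 69.1% in members and 100% in conserved sequences. The 55 miRNA* reads of osa-miR12474 in CS, which are among the 274, had 8 ends, with 18 reads (32.7%) at the main one. For pred-10b, 26 of 27 miRNA* reads over the 4 libraries began at the same base, and for pred-8e all 10 did. The 15 miRNA* reads of pred-6i were 6 sequences with 6 ends, of which the main one had 7 reads. Frequent miRNA* sequences of pred-6i and pred-8e are shown to make the contrast visible, and those of pred-6i are staggered along the hairpin.
pred-6i miRNA*, 7 reads in TR: ttaggctcaaaagattcgtct
pred-6i miRNA*, 2 reads in TR: taattaggctcaaaagattcg
pred-8e miRNA*, 5 reads in TR: agcaagatattgggtatttct
pred-8e miRNA*, 5 reads in TR: agcaagatattgggtatttctt

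In length the members were like the other predicted sequences and unlike the conserved ones, and in first base the intervals of members and conserved sequences just overlapped. The 22-nt class held 55 of the 98 members (56.1%, 45.7% to 66.1%), 58.6% of the predicted sequences without miRNA* and 9.43% (3.13% to 20.7%) of the conserved ones. The 21-nt class, the usual product of DCL1, held 29.6% of the members (20.8% to 39.7%), 30% of the sequences without miRNA* and 79.2% (65.9% to 89.2%) of the conserved ones. Sequences of 20 nt were 14.3%, 11.4% and 11.3%. The lists hold only sequences of 20 to 22 nt, so 22 nt is their upper limit and longer small RNAs are not counted in these shares. The first base was T in 57 members (58.2%, 47.8% to 68.1%), C in 16, A in 13 and G in 12, while T began 57.2% of the predicted sequences without miRNA* and 81.1% (68% to 90.6%) of the conserved ones. Within the members, T began 41 of the 60 listed in shoot only (68.3%, 55% to 79.7%), 9 of the 24 listed in root only (37.5%, 18.8% to 59.4%) and 7 of the 14 listed in both, and the intervals of the first pair overlap. Among the 21 members with at least 10 reads, T began 8 (38.1%).

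The precursors of the members had lower folding energies than those of the other predicted sequences. Each sequence was represented by 1 of its listed hairpins. For members a hairpin with miRNA* reads was taken first, and for the other classes the first by library and position, so the choice was not alike. The minimum free energy (MFE) had a median of -61.7 kcal/mol in members (quartiles -77 and -42.6), -48.9 kcal/mol in predicted sequences without miRNA* and -60.4 kcal/mol in conserved ones. Hairpin lengths had medians of 120, 112 and 113 nt, so the difference was also seen per 100 nt, at -48.1, -38.6 and -50.8 kcal/mol. The MFEI, which is the energy per 100 nt without its sign divided by the G+C percent, had medians of 1.35, 1.1 and 1.02, and the quartile ranges of members (0.999 to 1.62) and of predicted sequences without miRNA* (0.784 to 1.4) overlapped. G+C had medians of 38.6%, 38.7% and 49.6%. No test was made of these differences, since sequences of 1 locus or of 1 repeat are not independent. Among the hairpins taken for members, the lowest MFE was that of pred-1f, with -135.9 kcal/mol over 221 nt. The other listed hairpin of pred-1f was lower still, at -162.4 kcal/mol. The highest was that of pred-2d, with -16.4 kcal/mol over 60 nt. The MFEI ranged from 0.576 in pred-6g to 2.24 in pred-8g.

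Members matched the genome at 1 place in 69 cases (70.4%, 60.3% to 79.2%), at 2 to 5 places in 22 and at more in 7, up to 13 for pred-1j. Single matches made up 79.1% (75.7% to 82.2%) of the predicted sequences without miRNA* and 54.7% (40.4% to 68.4%) of the conserved ones. Of the 21 members with at least 10 reads, 9 (42.9%) matched a single place. Of the abundant members, pred-12e lay in a hairpin of 60 nt with an MFEI of 0.647, osa-miR12474 and osa-miR12475 had an MFEI of 0.713 and 0.72, and pred-2e and pred-10b had 1.57 and 1.5.

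**Figure D4:**
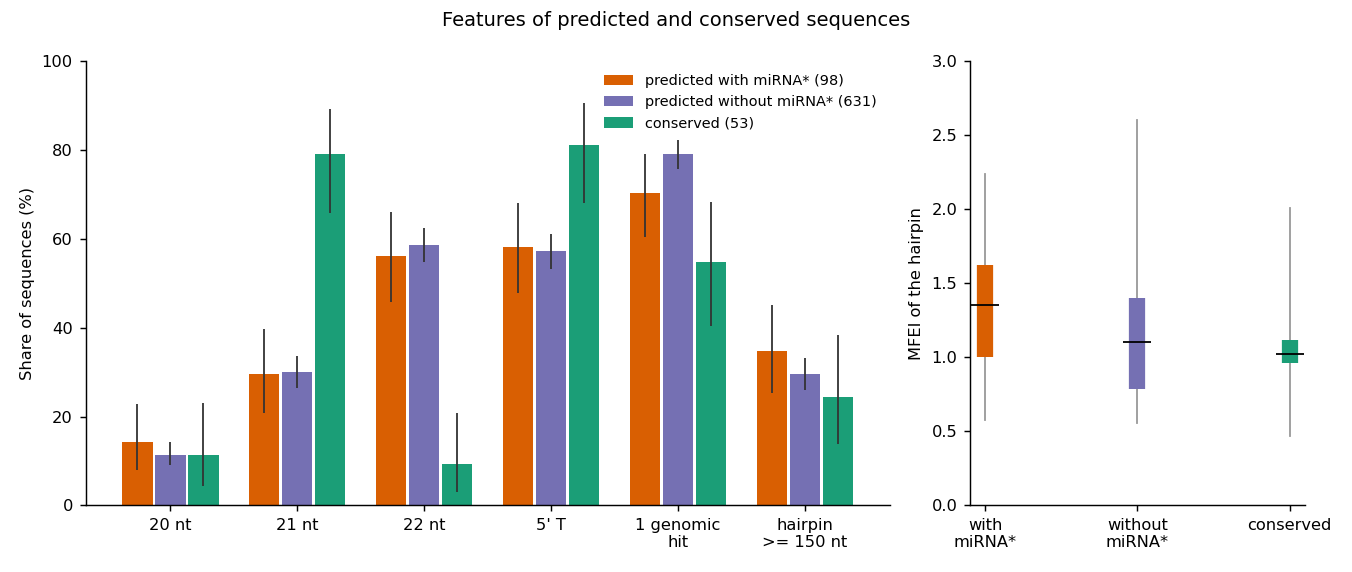
Left, share of sequences (%) with a given length, a T at the 5′ end, a single genomic match or a hairpin of at least 150 nt, in the members, in predicted sequences without miRNA* and in conserved sequences, with exact 95% intervals. Right, MFEI of the hairpins, with the median (dash), the quartiles (bar) and the range (line). The members and the other predicted sequences were both mostly of 22 nt, the greatest length in the lists, and the median MFEI was 1.35 in members and 1.1 in predicted sequences without miRNA*.

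Many members were related to each other in sequence. With a shared run of 11 bases in the mature sequence or the miRNA*, on either strand, as the criterion, 51 of the 98 fell into 11 groups, and the 3 largest groups, of 12, 12 and 8, held 32.7% of the members. The criterion was chosen after the sequences were seen, and membership runs through intermediates, so that not every pair in a group shares a run. Of the 631 predicted sequences without miRNA*, 37 (5.86%) and 43 (6.81%) shared a run with the groups of 12, and 6 (0.951%) with the group of 8. These have no miRNA* to compare, and no grouping among themselves is given here, so the relatedness is not shown to be particular to the members. In one of the groups of 12, all hairpins were 202 to 216 nt long with a G+C of 21.7% to 28.4%, they lay on 9 chromosomes, and 9 of them held the run CAACGTTTGAC or its reverse complement GTCAAACGTTG in the mature sequence or the miRNA*. In the mature sequence alone, the run was in 4 of the 98 members (4.08%) and in 11 of the 631 predicted sequences without miRNA* (1.74%). It was picked as the run most shared in the group, so these shares are a description. Examples are shown with the run in capitals.
pred-10i: gactttttttCAACGTTTGACt
pred-10i miRNA*: GTCAAACGTTGgtcgaaaagt
pred-5a: tttttacttaCAACGTTTGACc
pred-5a miRNA*: agtgGTCAAACGTTGcaagcaa
pred-6c: ttcatgttCAACGTTTGACt
pred-3i: tttccgtattCAACGTTTGACt
pred-4a miRNA*: cttttcgacCAACGTTTGACc
pred-9b miRNA*: atgGTCAAACGTTGgataaaa
These members had 2 to 15 reads at most, 8 of the 12 were listed in CS, 3 in TS and 2 in each of the root libraries. The miRNA* of pred-5a was also recorded for pred-1g, of chromosome 1, so that 1 sequenced read was counted at both hairpins.

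In the group of 8, which includes pred-10c, 6 members held GACACCGTTGA or its reverse complement TCAACGGTGTC. In the mature sequence alone it was in 2 of the 98 members (2.04%) and in 1 of the predicted sequences without miRNA* (0.158%). The hairpins were 103 to 211 nt long with a median of 204.0 nt, and all 8 mature sequences began with T and matched a single place. The mature sequences of pred-1d and pred-7e hold the run on 1 arm and their miRNA* hold its complement, as does the miRNA* of pred-10c.
pred-1d: tttGACACCGTTGActtttaat
pred-1d miRNA*: taaaaagTCAACGGTGTCaaat
pred-7e: ttGACACCGTTGActtacatg
pred-7e miRNA*: ctaaaaagTCAACGGTGTCaa
pred-10c miRNA*: aaagTCAACGGTGTCatata
The miRNA* of pred-1d was also recorded for pred-11e, and that of pred-7e for pred-5c. In the remaining group of 12, with hairpins of 62 to 149 nt on 6 chromosomes, 6 members held AGATTCGTAGT or its reverse complement ACTACGAATCT. In the mature sequence alone it was in 5 of the 98 members (5.1%) and in 4 of the sequences without miRNA* (0.634%). Examples are shown with the run in capitals.
pred-3a: cccAGATTCGTAGTattaggat
pred-4f: tctAGATTCGTAGTattagact
pred-6d: ttcAGATTCGTAGTaatagaat
pred-10h: tcctggtACTACGAATCTgaac
All 12 matched a single place, 9 began with T and none exceeded 15 reads.

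Some members were variants of another listed sequence. The hairpins of 20 members also held another listed sequence, and 16 members shared a run of at least 18 bases with it. A pair of members on 1 hairpin of chromosome 1, pred-1k and pred-1l, are shifted by 1 base: pred-1k was listed in CR and TS with 2 and 3 reads, and pred-1l in TR and CS with 3 and 4. pred-6d and pred-6e, of 22 and 20 nt from the same first base, were listed in CS with 5 reads and in TS with 2, and pred-10f and pred-10g, of 21 and 22 nt, in CS with 4 and in TS with 2. The list of TR, which does not hold osa-miR12475, held a sequence with 70 reads at its second hairpin on chromosome 6 that contains all 21 bases of osa-miR12475. pred-3d, listed in CR with 26 reads, shared 21 bases with a sequence of 8 reads in TR, and pred-4d, listed in TR with 2 reads, shared 21 bases with a sequence of 5 reads in CR, 11 in CS and 4 in TS.

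Another 3 members were linked to conserved miRNAs in these lists, and a pair to named predicted ones. pred-1e, with 81 reads in CS and 73 in TS and 1 miRNA* read in TS, is the listed miR319 sequence with 1 more base at the 5′ end, and on the same hairpin the miR319 sequence was listed with 268 reads (CR) and 308 reads (TR). The miR319 sequence also had 16 reads in CS and 39 in TS, where the lists give it at another hairpin of chromosome 1. The miR319 family targets TCP transcription factors of leaf growth. pred-6b, with 11 reads in CR, shares 20 bases with the miR1320 sequence of the same hairpin, shifted by 1 base, which had 5 reads in CS. The single miRNA* read of pred-4g, which had 22 reads in TR, is the last 20 bases of a miR169 sequence. That sequence, of a family that targets NF-YA transcription factors, was listed with 4 reads (CS) and 11 reads (TS). The sequences are given with bases 2 to 8 of the member, or none, in capitals.
pred-1e: cTTGGACTgaagggtgctccct
miR319: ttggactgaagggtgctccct
pred-6b (chr6:5073520-5073540, - strand): gTAAAATTcattcgttccaat
miR1320: tgtaaaattcattcgttccaa
pred-4g (chr4:30712348-30712367, - strand): gGCAAGTCtgtccttggcta
pred-4g miRNA*: agccaaggatgacttgccgg
miR169: cagccaaggatgacttgccgg
The pair of miRNA* sequences of pred-8e are the first 21 and 22 bases of osa-miR12482, a named predicted miRNA of 24 nt, and osa-miR12480, also of 24 nt, contains osa-miR12474 from base 3 on. Neither of the 24-nt sequences is within the lengths of the lists. The sequence that the paper gives as the miRNA* of osa-miR12482 contains the whole mature sequence of pred-8e. The strands called mature and miRNA* for pred-8e are thus the reverse of those in the paper.

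The response to NaCl could be measured only for members listed in both libraries of a tissue, 9 of the 38 listed in root and 17 of the 74 listed in shoot. A member was called where the RPM of 1 library was at least 2 times that of the other and the interval of the ratio excluded 1. In root, 2 of the 9 members were called higher in TR, beside 5 of all 46 sequences listed in both (10.9%), and 0 were called lower, beside 6 (13%). In shoot, 3 of the 17 were called higher in TS, beside 22 of all 96 (22.9%), and 0 were called lower, beside 7 (7.29%). The share called higher was thus near that of all sequences in shoot, and in root it rests on 2 members. The median log2 ratio of members was 0.13 in root and 0.84 in shoot, and that of all sequences was -0.32 and 0.43.

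pred-8a was called higher in both tissues. Its level was 1.16 RPM in CR and 2.72 RPM in TR, a ratio of 2.34 (1.06 to 5.87), and 0.61 RPM in CS and 2.97 RPM in TS, a ratio of 4.87 (2.17 to 12.3). pred-7c had 3 reads in CR and 25 in TR, or 0.436 and 2.06 RPM, a ratio of 4.73 (1.44 to 24.5), and its miRNA* reads were 1 and 3. It was not listed in shoot. osa-miR12475 had 95 reads in CS and 269 in TS, or 7.24 and 27.5 RPM, a ratio of 3.8 (3 to 4.86), with 1 miRNA* read in CS and none recorded in TS. On the paper's Northern blots osa-miR12475 was not detected in shoot. pred-2e had 76 and 216 reads, a ratio of 3.82 (2.93 to 5.03), and 3 miRNA* reads in each library. The ratios of osa-miR12475 and pred-2e differed by less than their counting error. These calls held under the 6 other scalings of the libraries, and of the 4 members called here pred-7c alone had a single genomic match: pred-2e, osa-miR12475 and pred-8a had 3, 4 and 7. Both calls in root rest on control counts under 10 reads, 3 for pred-7c and 8 for pred-8a. The shoot call of pred-8a also rests on 8 reads in CS.

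The remaining members with at least 10 reads in both libraries lay closer to 1. pred-12e had a ratio of 1.1 in root (0.925 to 1.3) and 1.9 in shoot (1.48 to 2.46), the latter above 1 by more than counting error but below the 2-fold limit. pred-5a, with 10 reads in CS and 15 in TS, had a ratio of 2.01 (0.847 to 5.02), and pred-1e had 1.21 (0.87 to 1.68). pred-10b had 0.744 in root (0.522 to 1.07) and 1.15 in shoot (0.841 to 1.56), and pred-10c had 1.14 (0.563 to 2.41) and 0.711 (0.378 to 1.3), so that for both a difference between control and treated was not detectable at this depth. Counting pred-7c and pred-8a, 15 members were listed in both libraries of a tissue with fewer than 10 reads in one of them. Apart from these named members, none of their intervals excluded 1.

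**Figure D5:**
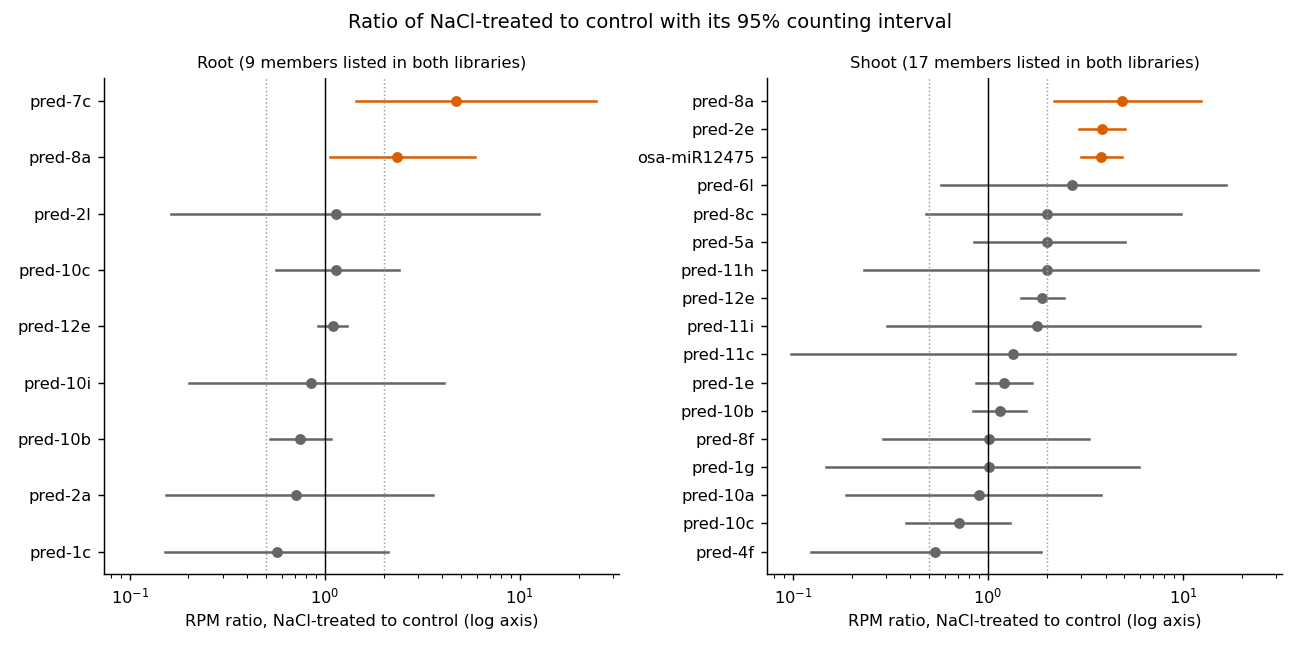
RPM ratio of NaCl-treated to control (log axis) with its exact 95% counting interval for the members listed in both libraries of root (9) and of shoot (17). The solid line marks 1 and the dotted lines 0.5 and 2, and the orange members (pred-7c and pred-8a in root; pred-8a, pred-2e and osa-miR12475 in shoot) were called higher.

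Between the tissues, in comparisons that share their libraries with those above, 5 members were listed in both control libraries and 8 in both treated libraries. Without added NaCl, osa-miR12475 was called higher in CS (95 reads) than in CR (16 reads), a ratio of 3.12 (1.82 to 5.68). It was 1 of 5 members, beside 11 of all 50 sequences (22%). The paper's Northern blots, a different measure, detected osa-miR12475 in root and not in shoot, with a decrease there under NaCl. The reads listed here thus differ from the blots in tissue. osa-miR12475 had 4 genomic matches, and the reason for the difference was not tested. pred-12e was called lower in shoot, at 8.23 RPM against 29.9, a ratio of 0.275 (0.216 to 0.349), beside 7 of all 50 (14%). Under NaCl, pred-12e was again lower in shoot, at 15.7 RPM against 32.8, a ratio of 0.477 (0.394 to 0.577), beside 8 of all 47 sequences (17%), and 0 of the 8 members were called higher, beside 15 (31.9%). pred-10b had ratios of 0.86 (0.614 to 1.21) and 1.32 (0.956 to 1.83), pred-10c of 1.37 (0.706 to 2.84) and 0.86 (0.444 to 1.63), and pred-8a of 0.525 (0.172 to 1.61) and 1.09 (0.639 to 1.85), and their intervals all include 1.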

How the data were processed

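Small RNA of 4 libraries, 1 per condition, was sequenced on an Illumina HiSeq2000. According to the study's methods the authors used the UEA Small-RNA Workbench, cutadapt and the NGS QC Toolkit on the reads, discarded other non-coding RNA, searched miRBase and mapped the rest to the rice genome to predict hairpins. The versions of the Workbench, of cutadapt and of the Toolkit, and the name of the hairpin predictor, were not given in the sources used here. Each deposited list has 1 entry per hairpin. In the deposited abundance column a mature sequence has the same read count at every locus, and the deposited miRNA* column gives sequences with their counts. The deposited RPM is the count per 1000000 reads used for prediction, and the authors also gave its log2. The deposited G+C of the hairpin is a percent, and the deposited p-value comes from the hairpin prediction. Lines without content, 3 each in CR and TR, 5 in CS and 4 in TS, were left out. Positions of mature sequences are as deposited, and they run 1 base above the numbering of the deposited hairpins.

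Distinct sequences were analysed in Python 3.11.15 with pandas 2.3.3, numpy 2.4.6 and scipy 1.17.1. Ratios were scaled by the reads used for prediction, with exact conditional (Clopper-Pearson) 95% intervals. The calls were checked on simulated counts without variation between plants, with limits set only where the library in the denominator had at least 10 reads. The overhang measure was checked on a made-up stem without bulges. Neither check covers calls that rest on fewer reads, or folds with bulges. Overhangs were read from the deposited fold, taking the partner of an unpaired end from the nearest paired base within 4 bases. In 2 members the mature sequence runs past the deposited hairpin. Other scalings were raw reads, trimmed reads, reads unaligned with NONCODE, listed reads, TMM factors (edgeR 4.0.16 in R 4.3.3) and the median of ratios. Filters on reads, genomic matches, miRNA* reads and hairpin p-value were also tried. The members named are those of the study with a name, those in all 4 libraries, the 10 with most reads and with most miRNA* reads, those called, the 5 highest and lowest ratios with at least 10 reads in both libraries, those with miRNA* in 2 or more libraries, and relatives of conserved miRNAs. The rule also took in ties, and members that illustrate a range or a sequence group were named after their values were seen. The members, lists and rules were chosen with earlier results of these data known. The miRNA* sequences of osa-miR12474 are not reported here.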

Additional observations from a re-analysis of the deposited data

Results flagged for a closer look

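Scaled by the reads used for prediction, the log2 ratio of NaCl-treated to control was 0.13 in root and 0.93 in shoot for pred-12e, 1 of the 4 members listed in every library. The difference, shoot minus root, was 0.79 (0.36 to 1.22, a normal approximation to counting error), with 206 and 398 reads in CR and TR and 108 and 153 in CS and TS. It depends on the scaling: it was also 0.79 with the sum of listed reads, but -0.22 (-0.65 to 0.21) with raw reads, -0.16 with trimmed reads, 0.02 with reads unaligned with NONCODE, -0.15 with TMM factors and 0.05 with the median of ratios, and each of these 5 intervals includes 0. The interval holds no variation between plants, since each condition is 1 library. For pred-8a and pred-10b the differences were 1.06 (-0.53 to 2.64) and 0.62 (-0.03 to 1.27), and their intervals include 0 under every scaling run. For pred-10c the difference was -0.68 (-1.94 to 0.59), the same with the sum of listed reads, and -1.69 to -1.42 under the 5 other scalings, whose intervals exclude 0. These scalings of the difference were added after the data were seen.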

How the results depend on the processing

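No paired analysis was possible because each condition had 1 library and the groups shared fewer than 2 replicate numbers. The number of members fell from 98 to 42 with at least 2 miRNA* reads in a library, to 13 with miRNA* in at least 2 libraries and to 21 with at least 10 mature reads. With at least 10 mature reads, T began 38.1% of members and 42.9% matched a single place, against 58.2% and 70.4%. Duplexes with 2 nt at both ends were 36.1% with at least 2 miRNA* reads, against 20%. In root the members called higher under NaCl went from 2 to 0 where both libraries needed 10 reads and to 1 with a single genomic match. In shoot those called higher went from 3 to 5 with the sum of listed reads (pred-12e and pred-5a added). They went to 2 where both libraries needed 10 reads and to 0 with a single match. Those called lower in shoot went from 0 to 1 with TMM factors (pred-10c). Between control tissues, those called higher in shoot went from 1 to 2 (pred-10c added) with raw, trimmed or NONCODE-unaligned reads and to 0 with a single match, and those called lower from 1 to 0 with a single match, as they did between treated tissues. No called ratio of a member reversed under the 6 scalings, while the median log2 ratio of all sequences ranged from -0.32 to 0.42 in root and from -0.09 to 0.98 in shoot. Leaving out a replicate could not be done with 1 library per condition. Depth limits most members: with 2 or 3 reads in a library the intervals of ratios and of miRNA* shares span much of their range. Shared runs of 10 or 12 bases and duplexes over every miRNA* sequence were chosen after the data were seen, as was leaving out relatives of conserved miRNAs.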
